A study of Homo sapiens with 16 samples.

Results

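The genes described here are 8 S100 genes, S100A2, S100A3, S100A4, S100A6, S100A10, S100A11, S100A13 and S100A16, and the filaggrin gene FLG, all in band q21 of human chromosome 1. They are 9 of the 14857 genes in the deposited table. They were chosen by symbol with their levels in the 4 clones already known, so the values that compare TTP clones with empty-vector clones are given as a description, without a test. No threshold entered the choice. Differences of the members between clones of the same arm carry p-values, but these levels were known too, so they describe chosen genes.

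S100 proteins are small calcium-binding proteins built from a pair of EF-hands. Most act as dimers that change shape when calcium binds and then dock onto partner proteins such as annexins, myosins and scaffold proteins, and some are released from cells and bind receptors. Many of their genes, these 8 included, lie in the epidermal differentiation complex, together with genes of the cornified envelope. FLG encodes profilaggrin, a fused-type S100 protein with an S100-like domain at its amino end followed by filaggrin repeats, which are cut apart in the upper epidermis and pack keratin filaments. Tristetraprolin (TTP, gene ZFP36) is an RNA-binding protein that binds AU-rich elements in 3′ untranslated regions and promotes the decay of the transcripts that carry them.

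The samples are 16 RNA-seq libraries of MDA-MB-231, a triple-negative breast cancer cell line, carrying the tet-off expression system. EV_A and EV_B are clones stably transfected with empty vector, and TTP_E11 and TTP_H3 are clones stably transfected with a TTP plasmid, with 4 biological replicates of each. Each of these is a single clone, with 2 clones per arm, so an effect of TTP and a difference between clones cannot be fully told apart. All cells were grown under G418 and hygromycin B. The TTP cells were kept in 2 ug/mL doxycycline, which holds a tet-off construct silent, and the drug was removed, along with the selection agents, 24 h or more ahead of each experiment so that TTP could be made. The labels do not mention doxycycline for the empty-vector cells, so a history of doxycycline cannot be told apart from TTP either. The titles of 7 of the 8 TTP libraries name the empty vector, and the groups here follow the library names.

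ZFP36 separated the arms as the library names do, at 213 to 282 normalized counts in the EV libraries and 10160 to 15041 in the TTP libraries. The libraries held 14380767 to 22066098 reads on the listed genes. All 4 markers of a mesenchymal basal line were present (VIM 22150 to 32735 as clone means). Of 7 luminal markers the estrogen and progesterone receptor genes and CDH1 are not listed. KRT8 (clone means 13924.5 to 17007), KRT18 (7730 to 8821), GATA3 and EPCAM are listed. Of 7 markers of keratinocytes, KRT10 is listed (clone means 1452 to 1806). KRT1, KRT5, KRT14, LOR, IVL and DSG1 are not listed, so FLG was measured in cells without most of that marker set. Between TTP and EV clones 3 of the 4 mesenchymal markers were lower and 1 higher by limma, where 34.6% and 35.4% of all genes were called lower and higher. They had a summed level of 85843 to 87118 in EV_A, 90233 to 90829 in EV_B, 70355 to 71707 in TTP_E11 and 68159 to 72176 in TTP_H3. The 4 listed luminal markers, of which 3 were lower, summed to 21539 to 26753 in EV and 21780 to 23281 in TTP libraries. Their part in the results below was not tested. Of 5 leukocyte markers 2 are listed, summing to at most 46.1, of 4 fibroblast markers 3, summing to 305.0 to 617.5, and of 2 endothelial markers none. Replicate 4 of EV_B and replicate 3 of TTP_H3 stood apart within their clones, and some results are given with and without them. P-values measure the spread between libraries within clones, estimated for each gene over all 4 clones together. A library can thus move the p-value of a comparison that does not include its clone.

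All 9 genes are transcribed from the minus strand and lie between positions 151982915 and 153631360 of chromosome 1 (GRCh38, GENCODE 29), a stretch of 1.65 Mb. It holds 91 annotated genes, of which 64 are protein coding and 16 are in the table. S100A10 and S100A11 come first, 38115 bases apart. FLG (chr1:152302175-152325203) lies alone, 254267 bases beyond S100A11 and 1209395 bases before S100A6. The remaining 6 S100 genes form a tight group in the order S100A6, S100A4, S100A3, S100A2, S100A16 and S100A13. S100A3 lies inside the annotated span of S100A4 (chr1:153543613-153550136) without sharing exon bases with it. FLG shares 704 of its 12747 exon bases (5.52%) with its antisense gene FLG-AS1, and S100A13 shares 24.2% of its exon bases with AL162258.1 and 10.6% with S100A1. No source used here gives the strand setting of the counting, so reads in these shared stretches cannot be assigned with certainty.

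The promoters of 5 members are shown because their genes had the most different patterns over the clones, from FLG, with the lowest TTP levels relative to EV, to S100A11, which was nearly level. Each run is RefSeq sequence of GRCh38.p14 from 250 bases before to 50 bases after the annotated start. Capitals mark TATAAA, the core of a TATA box, and TGANTCA, the core of an AP-1 site.
FLG chr1:152325190-152325489, minus strand: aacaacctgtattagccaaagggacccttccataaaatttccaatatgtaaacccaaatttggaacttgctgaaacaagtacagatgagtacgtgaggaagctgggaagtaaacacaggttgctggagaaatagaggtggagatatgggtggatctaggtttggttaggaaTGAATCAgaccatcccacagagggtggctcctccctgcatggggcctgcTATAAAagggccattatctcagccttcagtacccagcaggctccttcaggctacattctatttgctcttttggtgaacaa
S100A4 chr1:153545757-153546056, minus strand: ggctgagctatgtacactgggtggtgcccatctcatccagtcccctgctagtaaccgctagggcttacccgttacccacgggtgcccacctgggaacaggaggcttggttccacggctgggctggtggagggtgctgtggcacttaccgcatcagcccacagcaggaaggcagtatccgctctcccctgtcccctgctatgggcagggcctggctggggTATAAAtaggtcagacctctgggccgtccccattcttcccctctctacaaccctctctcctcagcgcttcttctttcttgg
S100A2 chr1:153565795-153566094, minus strand: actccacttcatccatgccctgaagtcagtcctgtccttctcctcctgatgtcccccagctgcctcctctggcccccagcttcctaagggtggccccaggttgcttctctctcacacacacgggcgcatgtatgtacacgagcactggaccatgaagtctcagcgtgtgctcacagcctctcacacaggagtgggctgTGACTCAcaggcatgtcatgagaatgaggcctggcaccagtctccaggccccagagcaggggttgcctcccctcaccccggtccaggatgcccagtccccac
S100A3 chr1:153549209-153549508, minus strand: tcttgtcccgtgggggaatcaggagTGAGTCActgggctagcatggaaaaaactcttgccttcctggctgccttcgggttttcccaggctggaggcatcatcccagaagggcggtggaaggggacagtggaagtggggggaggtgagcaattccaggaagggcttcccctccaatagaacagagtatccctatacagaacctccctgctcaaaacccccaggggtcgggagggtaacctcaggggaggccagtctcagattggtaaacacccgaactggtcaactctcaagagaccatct
S100A11 chr1:152036955-152037254, minus strand: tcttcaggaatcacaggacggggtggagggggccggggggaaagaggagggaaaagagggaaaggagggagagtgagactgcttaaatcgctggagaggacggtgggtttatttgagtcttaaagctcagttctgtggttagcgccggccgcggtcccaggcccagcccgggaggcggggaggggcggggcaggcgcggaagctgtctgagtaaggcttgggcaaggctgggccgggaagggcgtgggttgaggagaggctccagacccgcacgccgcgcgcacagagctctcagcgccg
All 9 members matched a RefSeq promoter, and each motif was searched on both strands. TATAAA was found in FLG and S100A4, beginning 30 and 31 bases before the start, and in 11.5% of 35116 RefSeq promoters of the same length. TGANTCA was found in FLG, S100A2 and S100A3 and in 7.71% of all promoters. The S100A11 window held neither, but it held GGGCGG, a GC box, as did 5 of the 9 member promoters and 45.0% of all. CACCTG, an E-box, was found in S100A4 and S100A16 and in 20.6% of all promoters. These are letter matches and not measured binding sites.

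FLG had the widest separation between the arms. Its normalized counts were 1379, 1288, 1318 and 1327 in EV_A and 1275, 1261, 1217 and 1153 in EV_B. They were 242.0, 240.3, 212.7 and 217.5 in TTP_E11 and 367.4, 386.0, 121.7 and 398.1 in TTP_H3. Every TTP library lay below every EV library, and the third TTP_H3 library lay below all other libraries. The clone means were 1328 ± 37.9, 1227 ± 55.1, 228.1 ± 15.2 and 318.3 ± 132 (SD, n = 4 each) for EV_A, EV_B, TTP_E11 and TTP_H3. On the log2(normalized count + 1) scale TTP clones were lower than EV clones by a mean of 4.96-fold (log2 difference -2.31 ± 0.21 SE), and the authors' deposited table gives a log2 fold change of -2.23 for the same gene. Without the third TTP_H3 library the difference for FLG was -2.11. In these bulk libraries, fewer cells with a transcript and less of it per cell cannot be told apart.

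S100A4, the metastasis-associated S100 protein that binds non-muscle myosin, had a different level in every clone. Its values were 8386, 8919, 9077 and 8987 in EV_A and 5236, 5215, 5275 and 3998 in EV_B. They were 1538, 1667, 1779 and 1812 in TTP_E11 and 3150, 2966, 2213 and 3001 in TTP_H3. No clone overlapped another, and the order was EV_A, EV_B, TTP_H3 and TTP_E11. TTP clones were 3.02-fold lower than EV clones on the log2 scale (difference -1.59 ± 0.081 SE). Its neighbour S100A3, best known from the hair cuticle, was much scarcer and had nearly the same log2 difference, -1.60 ± 0.11. S100A3 values were 186.9, 238.6, 263.3 and 208.6 in EV_A and 127.6, 116.5, 101.8 and 69.6 in EV_B. They were 47.6, 44.1, 49.1 and 52.5 in TTP_E11 and 40.4, 55.0, 50.9 and 53.3 in TTP_H3. The TTP clones overlapped each other for S100A3, unlike S100A4.

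S100A6 (calcyclin), the most abundant member, ranked 67 of 14857 genes by mean level. Its values were 27906, 29713, 29993 and 30061 in EV_A and 23919, 23773, 24591 and 19584 in EV_B. In TTP_E11 they were 12469, 13174, 13792 and 13896, and in TTP_H3 16029, 15033, 13941 and 16056. All TTP libraries lay below all EV libraries, with a log2 difference of -0.86 ± 0.048 SE. S100A10, the partner of annexin A2 at the plasma membrane, had values of 7291, 7367, 7498 and 7530 in EV_A and 5450, 5373, 5515 and 4339 in EV_B. The TTP_E11 libraries gave 3092, 3204, 3330 and 3399 and the TTP_H3 libraries 3482, 3343, 3411 and 3400. It too separated the arms without overlap (log2 difference -0.89 ± 0.039 SE).

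S100A2, an S100 protein of squamous epithelia, stood apart from these. Its values were 1217, 1218, 1196 and 1178 in EV_A but 452.3, 526.3, 492.8 and 415.6 in EV_B, close to 378.7, 421.8, 420.0 and 409.2 in TTP_E11 and 445.1, 404.4, 330.2 and 431.5 in TTP_H3. EV_A alone was high, and EV_B overlapped both TTP clones. The log2 difference of -0.90 between arms was -1.57 with EV_A alone as the control and -0.22 with EV_B alone. The choice of control clone also moved S100A4 (-2.02 against EV_A, -1.17 against EV_B), S100A3 (-2.16 and -1.04), S100A10 (-1.16 and -0.63) and S100A6 (-1.05 and -0.68). It moved FLG little, at -2.37 and -2.25.

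The last 3 members differed little between the arms. S100A11, an annexin A1 partner, had clone means, in the clone order used for FLG, of 4524 ± 82.6, 4317 ± 162, 4506 ± 118 and 4677 ± 143 (SD, n = 4 each). Only TTP_H3 and EV_B did not overlap, with TTP_H3 higher. S100A11 has annotated pseudogene copies, with which it could share reads. S100A16, which is widely expressed, had clone means of 4770 ± 76.9, 4132 ± 154, 4108 ± 187 and 4427 ± 301. S100A13, which takes part in the release of FGF1 from cells, had clone means of 624.3 ± 52.0, 446.0 ± 32.5, 568.1 ± 20.1 and 560.8 ± 54.5. Its EV_B libraries lay below all TTP_E11 libraries and the lowest EV_A library, and the log2 difference turned from -0.14 against EV_A to 0.34 against EV_B. The sign for S100A16 also turned, from -0.16 to 0.04, and it was 0.02 when libraries were scaled to equal totals instead of by size factors.

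**Figure D1:**
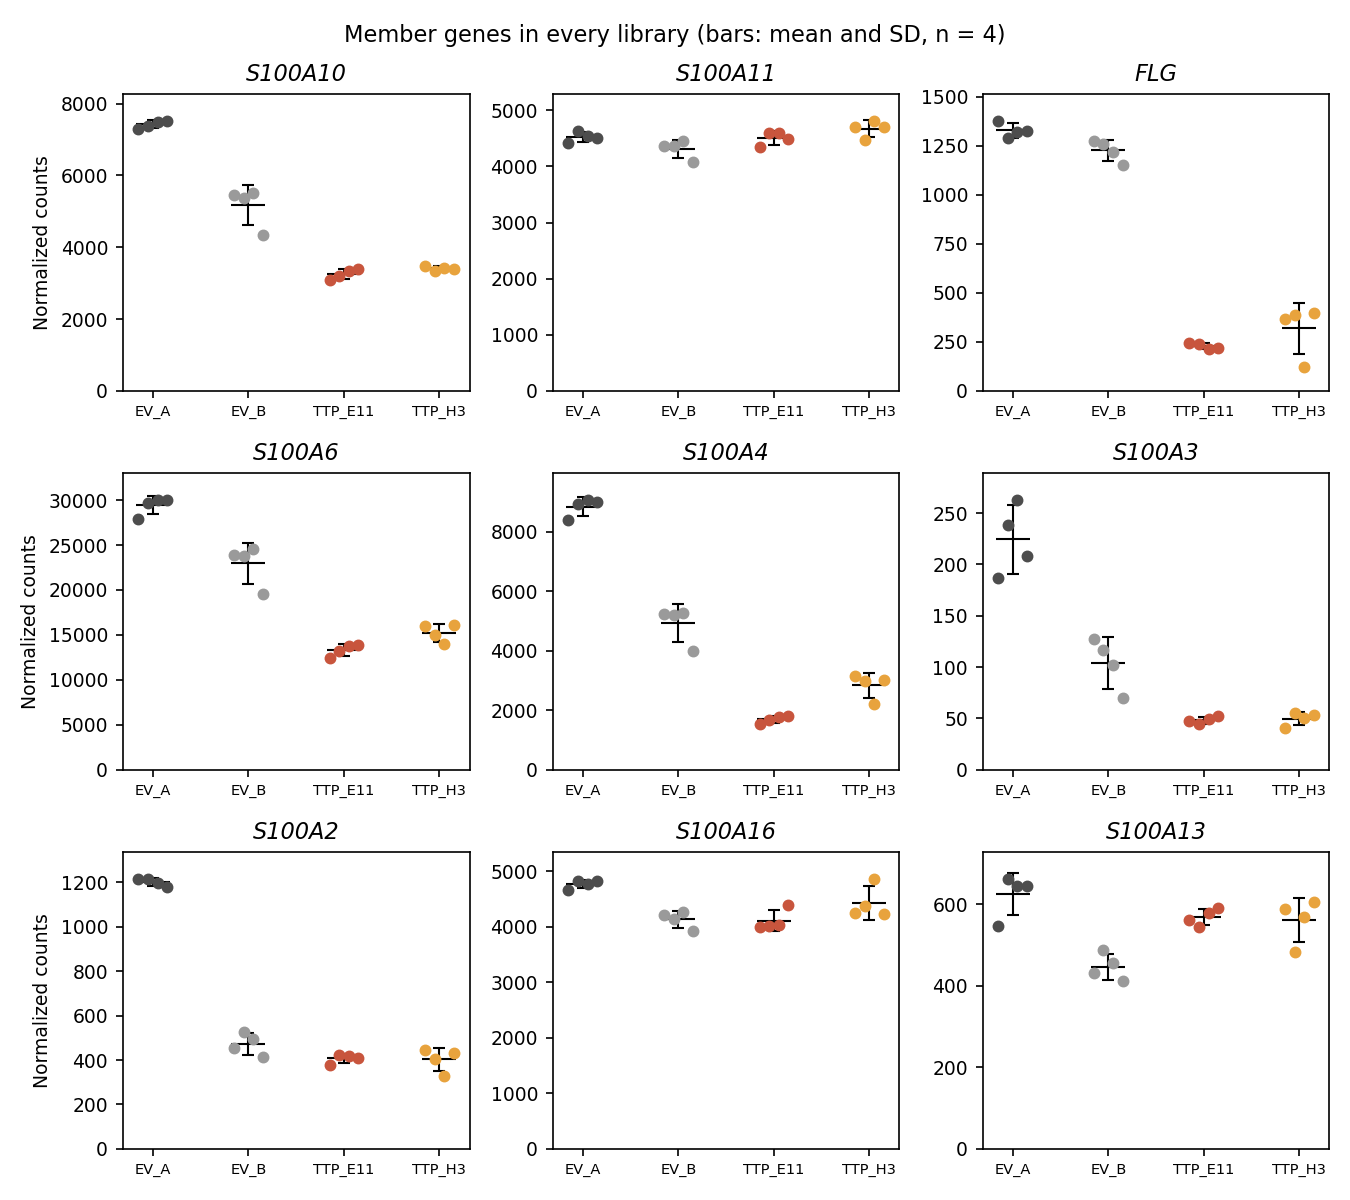
Normalized counts (vertical axes, each from 0) of the 9 genes in each library, by clone, with horizontal bars for the mean and whiskers for the SD of 4 libraries. FLG, S100A4, S100A6, S100A10 and S100A3 have all 8 TTP libraries below all EV libraries, while S100A2 is high only in EV_A.

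In all, 5 of the 9 genes (FLG, S100A4, S100A6, S100A10 and S100A3) had all 8 TTP libraries below all 8 EV libraries, a pattern that 16.2% of all genes in the table had. For the same 5 genes EV_B also lay wholly below EV_A, so that the levels stepped from EV_A to EV_B to the TTP clones, as in 3.34% of all genes. The median log2 difference between TTP and EV over the 9 genes was -0.89, against 0.00066 over all genes. Because the genes were picked with these values in view, the counts describe the choice.

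**Figure D2:**
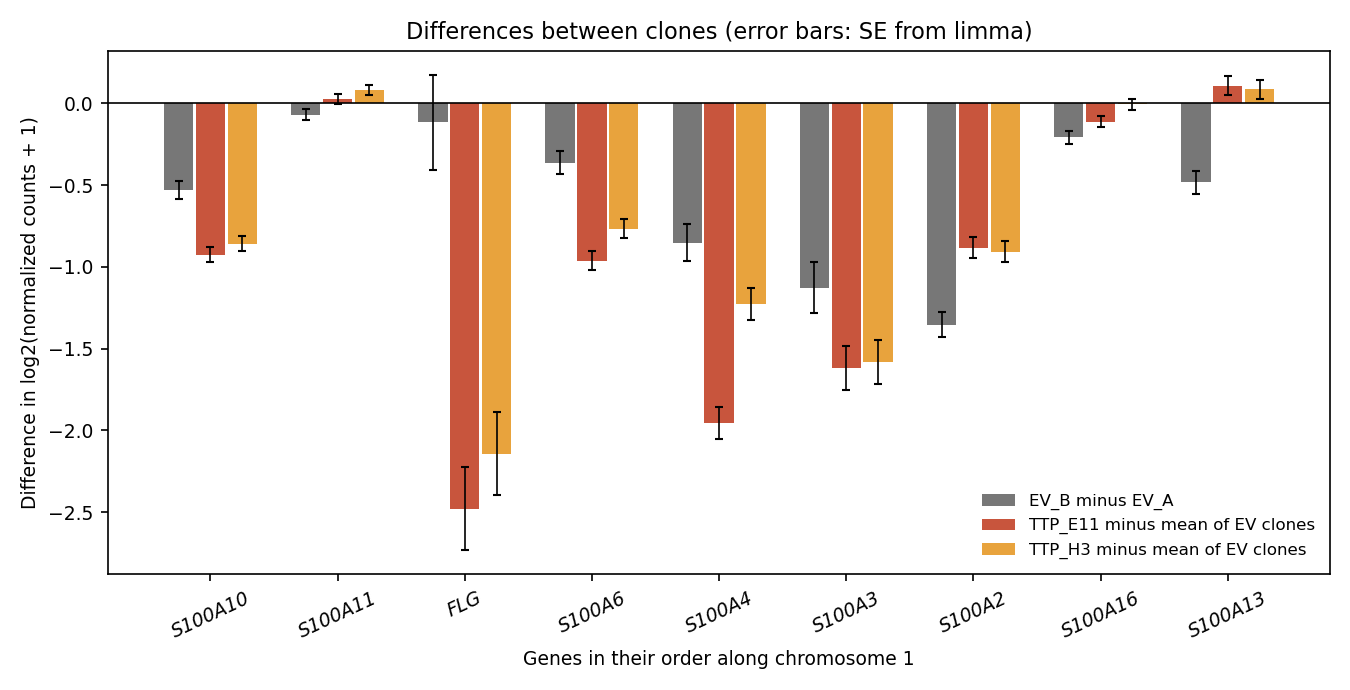
Log2 differences (vertical axis, log2 of normalized count + 1) of EV_B from EV_A and of each TTP clone from the mean of the EV clones, for the 9 genes in chromosomal order, with SE from limma as error bars. The bars for TTP_E11 and TTP_H3 share the EV libraries, and the grey bar for S100A2, -1.35, is longer than either of its TTP bars.

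The comparison between the empty-vector clones asks how far these genes vary without introduced TTP. By limma with Benjamini-Hochberg adjustment over all 14857 genes, 7 of the 9 genes passed with less in EV_B and none with more, where 16.6% of all genes were called lower. The genes were picked with these levels already known, so this count and the p-values of the members describe chosen genes. S100A2 fell most, with a log2 difference of -1.35 (adjusted p = 1.19e-13), followed by S100A3 (-1.13, adjusted p = 7.50e-07) and S100A4 (-0.85, adjusted p = 6.82e-05). S100A10 (-0.53), S100A13 (-0.48), S100A6 (-0.36) and S100A16 (-0.21) were lower too, with adjusted p from 3.22e-07 to 0.000895. FLG (-0.12, adjusted p = 0.796) and S100A11 (-0.07, adjusted p = 0.113) did not pass. For FLG the adjusted p was 0.0873, at the same difference, without replicate 3 of TTP_H3, whose spread enters the shared fit. In 8 of the 9 genes, all but S100A11, every EV_B library lay below every EV_A library, against 16.3% of all genes. Replicate 4 of EV_B gave the lowest of the 4 EV_B values for all 9 genes, where it did so for 31.6% of all genes in the table. Replicate 1 of EV_A was lowest in its clone for 7 of the 9 genes (30.0% of all genes). Replicate 1 of TTP_E11 was so for 6 (27.9%). Without replicate 4 of EV_B, S100A4 differed by -0.75 (adjusted p = 0.000137), S100A6 by -0.29 (adjusted p = 3.87e-05) and S100A10 by -0.45 (adjusted p = 2.58e-12). The same 7 members passed without that library, with S100A3 at -0.95.

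Between the TTP clones 6.35% of all genes were called higher in TTP_H3. The single member to pass was S100A4, 0.73 ± 0.11 SE higher in TTP_H3 than in TTP_E11 on the log2 scale (limma, adjusted p = 0.0012). The difference was 0.84 (adjusted p = 6.31e-05) without replicate 3 of TTP_H3, its lowest library. FLG differed by 0.34 (adjusted p = 0.526) with all libraries and by 0.75 (adjusted p = 1.44e-13) without that replicate, which held 121.7 normalized counts against 367.4 to 398.1 in the others. S100A6 was 0.19 higher in TTP_H3 (adjusted p = 0.0879), and 0.24 higher without the same replicate (adjusted p = 0.044). Without replicate 4 of EV_B, a library outside this comparison, the S100A6 difference stayed at 0.19 with adjusted p = 0.00288. For S100A10, S100A11, S100A3, S100A2, S100A13 and S100A16 the log2 differences ran from -0.02 to 0.11 and did not pass, the last of them passing without replicate 4 of TTP_E11 (0.14, adjusted p = 0.0288).

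**Figure D3:**
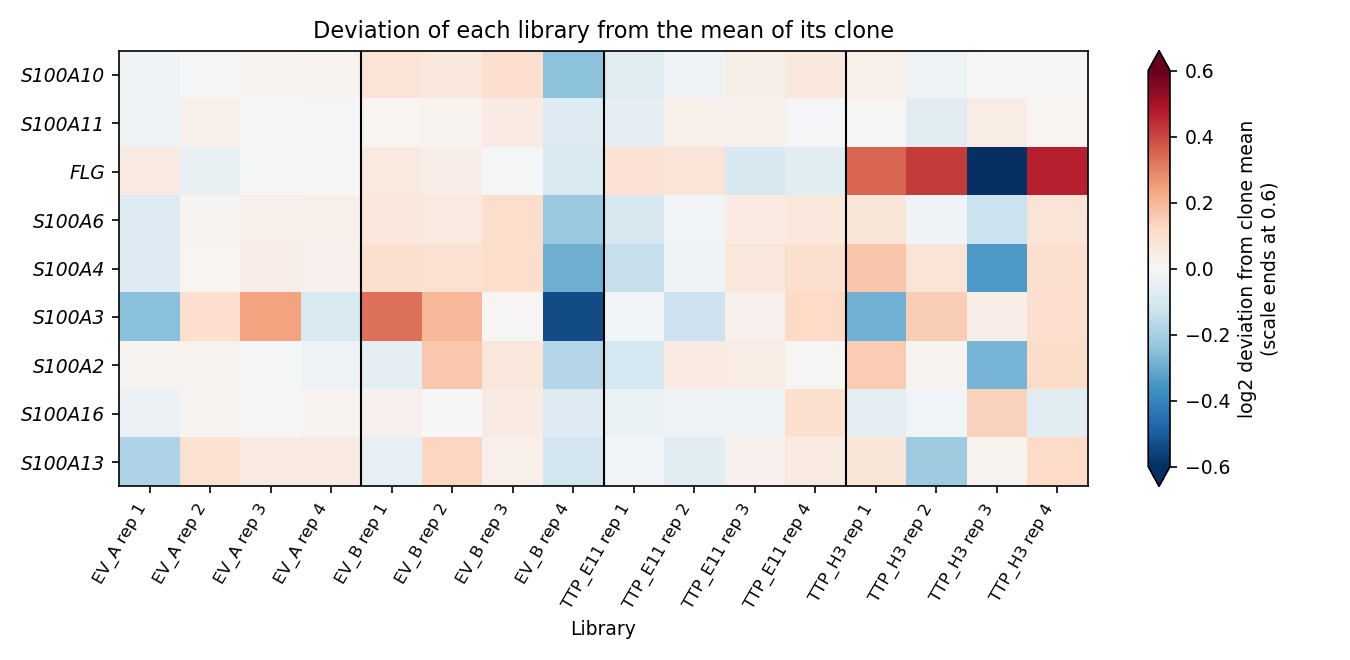
Deviation of each library from the mean of its clone, in log2 of normalized count + 1 (colour, with a scale that ends at 0.6), for the 9 genes in chromosomal order and the 16 libraries. The fourth EV_B library is low across the genes, and the third TTP_H3 library is low for FLG, S100A4 and S100A2 but not for S100A16.

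Levels can be compared between genes only per length, here as normalized counts per kb of merged exons. Merged exons join all annotated transcripts of a gene, and the order below holds for that choice of length only. S100A4 has 1025 merged exon bases and S100A13 has 2216. The transcripts used below for their 3′ regions have 600 and 514 bases. Which transcripts these cells make was not tested. S100A6 was highest in every clone, at 30297 and 23653 in EV_A and EV_B and 13731 and 15720 in TTP_E11 and TTP_H3. S100A4 was next in EV_A at 8626. In EV_B, at 4811, it stood behind S100A11 at 6348, and in TTP_E11, at 1658, behind S100A11, S100A16 and S100A10. In TTP_H3 it stood at 2763, with libraries that overlapped those of S100A16 at 2602. S100A2 and S100A13 overlapped in both TTP clones, and FLG, with by far the longest transcript, was last in each clone, from 104 in EV_A to 17.9 in TTP_E11, overlapping S100A3 in EV_B. In EV_A, S100A13 and S100A3 overlapped.

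The make-up of the S100 pool differed between clones along with its size. The 8 S100 genes together held 57026 ± 1615 (EV_A) and 42537 ± 3847 (EV_B) normalized counts in the empty-vector clones, against 27926 ± 1150 (TTP_E11) and 31623 ± 1173 (TTP_H3) in the TTP clones (SD, n = 4 each). S100A4 made up 15.5% and 11.6% of that sum in the EV clones and 6.08% and 8.93% in the TTP clones. The ratio of S100A4 to S100A6, which does not depend on library scaling, was 0.301 ± 0.0015, 0.214 ± 0.0071, 0.127 ± 0.0031 and 0.185 ± 0.018. S100A16 per S100A6 went the other way, at 0.162, 0.181, 0.308 and 0.292.

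Across the 16 libraries, S100A6 correlated with S100A4 (Pearson r = 0.99) and S100A10 (r = 0.98), and within clones, as deviations from the clone means, the same pairs had r = 0.93 and r = 0.87. FLG and S100A4 had r = 0.91 across libraries and 0.69 within clones. FLG and S100A16 had 0.21 across libraries and -0.72 within clones, where the third TTP_H3 library is low for FLG and high for S100A16. S100A10 and S100A11 had -0.19 and 0.73. These values are descriptions over n = 16 libraries that share clones and scaling.

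Among 11877 other genes with a mean of at least 50, those with the highest r to each member over the 16 libraries were found by the same rule for each member, and of those named AK4 alone lies on chromosome 1. For FLG they were CHST3 (r = 0.986), SORCS2 (0.985) and NPC1 (0.984). For S100A4 they were C9orf3, HSPA5, which encodes the chaperone BiP, and PKM, a glycolytic enzyme, each at 0.988. S100A6 was most like PYGB (0.995), PKM (0.992) and FOXQ1 (0.990). S100A10 was most like PLA2G16 (0.995), PYGB and AK4 (both 0.992), and S100A3 like PLA2G16 (0.989), SREBF1 (0.986) and SCD (0.985). S100A2 was most like ABCC3 and SLC38A2 (both 0.979) and CALR (0.975). S100A16 (MAPK13, 0.910) and S100A13 (HERC6, 0.928) had weaker matches, and S100A11 had the weakest (LGMN, 0.858).

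Of the genes lying between the members, 7 more are in the table, and 3 were lower and none higher in TTP clones by limma. Over all genes 34.6% were called lower and 35.4% higher. S100A5, the gene beside S100A6, was measured at a low level, with clone means of 61.3 and 59.1 in the EV clones and 17.8 and 22.5 in the TTP clones. The arms did not overlap, with 45.7 to 70.4 against 11.3 to 28.3. The log2 difference for S100A5 was -1.57 (adjusted p = 1.35e-10). The antisense gene BX470102.1, which shares 23 exon bases with S100A6, fell by 1.21 (adjusted p = 7.93e-07), and FLG-AS1 fell by 0.62 (adjusted p = 0.00405). Most of the FLG-AS1 fall was in TTP_H3, whose mean was 14.4, against 25.1 for TTP_E11 and 31.0 and 28.1 for the EV clones. The log2 difference of TTP_H3 from TTP_E11 for FLG-AS1 was -0.83 (limma, adjusted p = 0.036). FLG-AS1 did not pass the threshold as lower in each of the 4 clone contrasts. S100A1 (-0.19, adjusted p = 0.345), HRNR (-0.23, adjusted p = 0.37, but -0.65 and 0.0441 against EV_B alone), S100A9 (0.51, adjusted p = 0.377) and AL162258.1 (0.10, adjusted p = 0.738) did not pass. A list of 14 further genes held other S100 genes and S100PBP, which encodes a binding protein of S100P and is not itself an S100 gene, and 4 of them were measured. Of the 3 S100 genes among these (S100A1, S100A5 and S100A9) S100A5 was lower, and S100PBP was lower too (-0.20, adjusted p = 0.000377). Of the 10 listed genes before S100A10, 5 were higher and none lower, and of the 10 after S100A13, 2 were higher and 3 lower. These flanks were added after the data had been seen.

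Of 40 genes of filaggrin processing and cornification 17 were measured, of which 11 were lower, 3 higher and 3 not called in TTP clones, beside 34.6% lower and 35.4% higher over all genes. The median log2 difference was -0.22. Each TTP clone was also set against each EV clone, which gives 4 contrasts. With adjusted p under 0.05 required in every contrast, 4 genes were lower and 2 higher in all of them. Of all genes 19.5% and 19.0% met that rule. PADI1, a peptidylarginine deiminase, fell by 0.92 (adjusted p = 4.57e-08), with clone means of 93.8, 55.3, 35.5 and 40.3. FURIN, the proprotein convertase that can cut profilaggrin, fell by 0.49 (adjusted p = 7.10e-16) and EVPL, which encodes envoplakin, by 0.47 (adjusted p = 1.90e-13). DSP, which encodes desmoplakin, rose by 0.45 (adjusted p = 5.49e-16), and BLMH, the bleomycin hydrolase that degrades filaggrin peptides, rose by 0.36 (adjusted p = 8.85e-13). PADI4 was read mainly in EV_A, with a mean of 88.6 against 0.975 in EV_B, 0.223 in TTP_E11 and 0.478 in TTP_H3, and against EV_B alone its difference was -0.53 (adjusted p = 0.302). PPL, which encodes periplakin, likewise went from -0.65 (adjusted p = 0.000558) to -0.13 (adjusted p = 0.522) with EV_B alone. ARNT, the highest expressed gene of the list that did not pass, differed by 0.03 (adjusted p = 0.487), and it passed against EV_B alone (0.12, adjusted p = 0.0173).

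Of 38 partners and receptors of S100 proteins 30 were measured, with 14 lower, 8 higher and 8 not called in TTP clones, where 34.6% and 35.4% of all genes were called lower and higher. The median log2 difference was -0.08. With the threshold passed in all 4 clone contrasts, 11 were lower and 6 higher, against 19.5% and 19.0% of all genes. TLR4, a receptor for released S100 proteins, rose by 2.92 ± 0.053 SE (adjusted p = 3.04e-29), from clone means of 126 ± 18.0 in EV_A and 147 ± 2.34 in EV_B to 801 ± 34.3 in TTP_E11 and 1348 ± 78.9 in TTP_H3. FGF1, a cargo of S100A13, rose by 1.82 (adjusted p = 2.21e-15), and SYT1, which encodes a synaptotagmin, rose by 1.11 (adjusted p = 8.15e-12). AHNAK, a scaffold bound by the complex of S100A10 with annexin A2, had clone means of 44870, 34706, 19539 and 21226 and fell by 0.95 (adjusted p = 9.03e-11), stepping from EV_A to EV_B to the TTP clones. PLAU, which encodes urokinase, fell by 0.61 (adjusted p = 4.58e-21) and IQGAP1 by 0.48 (adjusted p = 7.65e-18). ANXA2, the highest expressed of these genes that did not pass, differed by -0.04 (adjusted p = 0.0517), and it passed without both libraries that stood apart (-0.05, adjusted p = 0.00691).

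**Figure D4:**
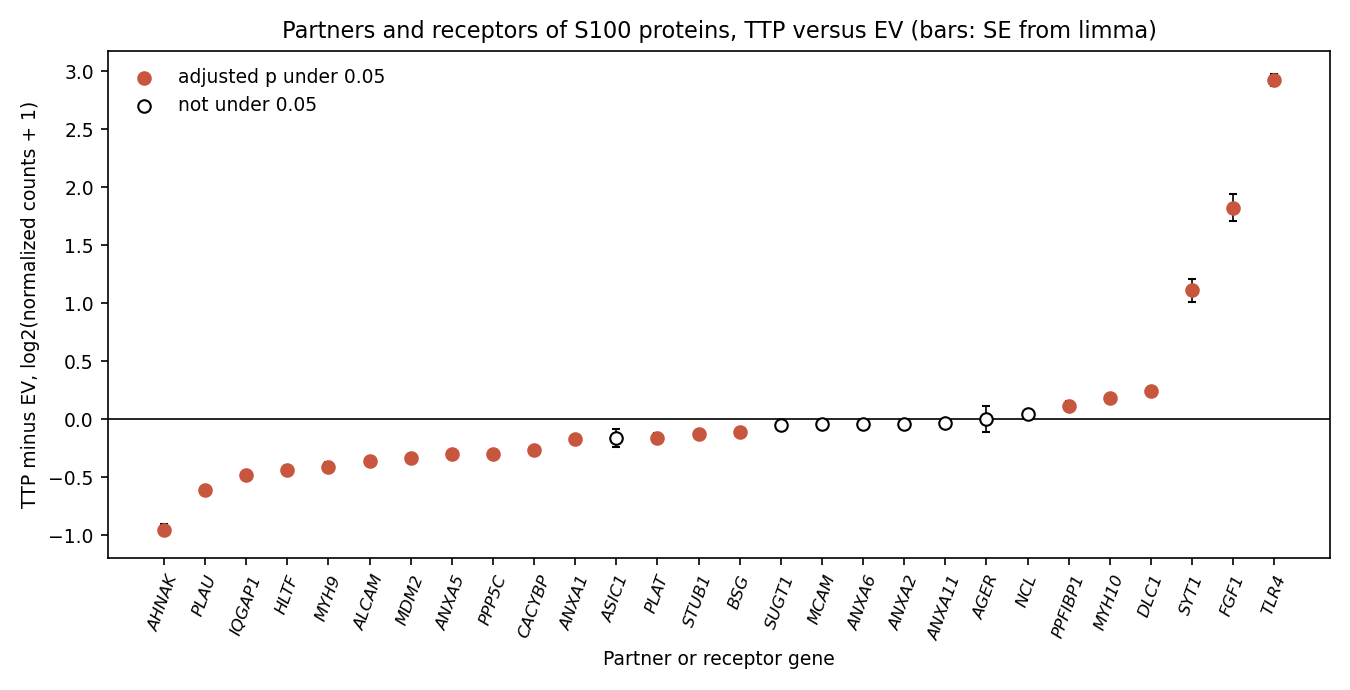
Log2 differences between TTP and EV clones (vertical axis, log2 of normalized count + 1) for measured partner and receptor genes, with SE from limma as error bars and filled points for those that passed the adjusted threshold. TLR4 lies highest at 2.92 and AHNAK lowest at -0.95.

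TTP binds UAUUUAU-like elements, so the 3′ untranslated regions were searched for TATTTAT and its core ATTTA on the transcript strand, using the longest GENCODE 29 region of each gene. None of the 9 members held TATTTAT, against 35.2% of 12558 genes, and 2 of 9 held ATTTA, against 72.9%. The member regions are short, from 96 bases (S100A13) to 648 bases (S100A16), against a median of 1350. Among genes with a region within 1.5 times the length of that of FLG (525 bases), 16.5% held TATTTAT and 53.6% ATTTA, and for S100A4 (146 bases) these shares were 4.84% and 22.9%. The 2 matches are shown with the core in capitals.
S100A3: gaaagggcctATTTAactcctaata
S100A6: ttttggtcaaATTTA
They start at bases 323 and 93 of their regions. The lack of a match in FLG and S100A4 says only that these letters are not in these windows.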

How the data were processed

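The submitters' processing notes for the 16 libraries name GRCh38, Trimmomatic 0.36, STAR 2.5.2b, featureCounts, Subread 1.5.2 and DESeq2 without their settings, and no source used here gives the annotation or the strand setting. The authors deposited gene counts divided by size factors, a depth-normalized signal here called normalized counts, beside a log2 fold change and adjusted p-values of their own for TTP against EV. The values of each library, 100% of them, were whole multiples of that of 1 read within 0.001.

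The normalized counts were taken to log2 with a pseudocount of 1 and fitted with limma 3.58.1 (R 4.3.3, robust trend) over 14857 genes and 4 clone groups, with Benjamini-Hochberg adjustment and a threshold of 0.05. A low-value filter, pseudocounts of 0.1 and 5, other scalings, count tests on recovered reads (DESeq2 1.42.0 and edgeR 4.0.16), and leaving out libraries were alternatives. The code was tested on simulated data. The members and lists were chosen with earlier results of these data known. All 9 members are named, with the 3 genes most like each member. Of each list, named genes passed between TTP and EV with the same sign in all 4 clone contrasts (at most 8 by size). The highest expressed gene of each list that did not pass is named too. The neighbouring genes S100A9 and AL162258.1 fall outside that rule and were named after their values were seen. Some genes that the rule names are not reported here.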

Additional observations from a re-analysis of the deposited data

Results flagged for a closer look

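Of 36 groups of 4 libraries, 1 for each member in each clone, 7 held a library far from the others by Dixon's test. Chance gives this in about 1 in 20 independent groups, but these groups share the same 16 libraries and are not independent. The share over all genes was not computed. Of the 7, 3 were replicate 4 of EV_B, with 4339 normalized counts of S100A10 (nearest other library 5373), 19584 of S100A6 (23773) and 3998 of S100A4 (5215). That library was the lowest of its clone for 31.6% of all genes. Replicate 1 of EV_A was low for S100A6 at 27906 (29713) and for S100A13 at 547.6 (643.4). Replicate 3 of TTP_H3 was low for FLG at 121.7 (367.4), and replicate 4 of TTP_E11 was high for S100A16 at 4388 (4033). S100A4 differed between the TTP clones, by 0.73 on the log2 scale, in a direct test (limma, adjusted p = 0.0012).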

How the results depend on the processing

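The calls of the 9 genes between the EV clones kept their side of the threshold in 224 of 225 comparisons with an alternative, the exception being S100A11 under library-total scaling (-0.10, adjusted p = 0.016). Between the TTP clones 218 of 225 did so, and 7 newly passed, for FLG, S100A6 and S100A16. The number of members called between the TTP clones was 1, against 2 with DESeq2 and 3 without both EV_B replicate 4 and TTP_H3 replicate 3, and 1 to 3 when single libraries were left out. All genes called there numbered 1735, against 2851 without those libraries and 1118 to 2261 leaving out 1 library, the lowest without TTP_E11 replicate 2. Leaving out 1 library gave 4808 to 6006 calls between the EV clones (5468 with all), and always 7 members, and 10150 to 10517 between TTP and EV (10405), of which 5431 to 5805 in all 4 clone contrasts (5713). On recovered reads edgeR called 5468, 1866 and 10432 genes between the EV clones, the TTP clones and the arms, and DESeq2 5296, 1790 and 10227. Library-total scaling moved the median of all genes between TTP and EV by 0.08, the share of calls that were higher from 50.6% to 61.4%, and that between the EV clones from 54.9% to 44.8%. With the replicate number as a block the counts were 5420, 1688, 10354 and 5691, with 7 and 1 members called, and same-numbered libraries had deviations with r from -0.088 to 0.096, so the numbers were not treated as pairs. Each arm holds 2 clones. Low counts, as for S100A5 and S100A3, limit precision.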
